A study of Mus musculus with 8 samples.

Results

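The enzymes that turn squalene into cholesterol were followed in mouse CD11c positive bone marrow cells with and without acetylated low density lipoprotein (acLDL). The 9 gene symbols of this stretch of the pathway, Sqle, Lss, Cyp51, Tm7sf2, Msmo1, Nsdhl, Ebp, Sc5d and Dhcr7, were matched by name to the gene symbols of the expression table. Of these 9 genes, 8 had a row among the 11756 genes of the table, and Dhcr7 was not analysed here. The cells came from the femurs and tibias of C57BL/6 mice, with no other allele named, and were isolated by FACS for CD11c, an integrin of dendritic cells and some macrophages. Cells of 4 libraries received acLDL on culture day 6 for 24 h, and cells of 4 control libraries had the treatment label "no". The labels do not say whether libraries came from separate animals or cultures or whether animals were pooled, so p-values measure the spread between libraries, which may be technical.

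Squalene is the open-chain precursor from which all sterols are made. Sqle adds oxygen to it, Lss folds the product into the first sterol, lanosterol, and the later enzymes strip methyl groups, move double bonds and reduce them until cholesterol remains. Transcription of the pathway is driven by the factor encoded by Srebf2, which is held back in the endoplasmic reticulum when cells contain much cholesterol. Acetylated LDL is taken up through scavenger receptors, which are not shut down by cholesterol, and its cholesterol is released in lysosomes.

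Values were normalized by the authors, and library totals ran from 3917430 to 4385050 in that unit. The table has no value between 0 and 5, and 5.63% to 21.9% of the genes were listed at 0 in a library. This share was 6.98%, 18.5%, 21.9% and 11.1% in acLDL libraries 1 to 4. In control libraries 1 to 4 it was 11.96%, 11.4%, 5.63% and 9.06%, so acLDL libraries 2 and 3 had the highest shares. Libraries also differed in the level of short transcripts. A short-transcript index was computed as the mean log2 deviation of 489 tested genes, none of them a member, whose longest coding transcript is under 1000 nt. It is not a share of the signal, values listed at 0 lower it, and longer transcripts were not set against it. The index was 1.11, -1.36, -2.25 and -0.30 in acLDL libraries 1 to 4 and 0.06, 0.94, 1.08 and 0.72 in control libraries 1 to 4. AcLDL library 1 therefore lay with control libraries 2 to 4, and the other three acLDL libraries lay below every control. Marker sums mostly follow the most abundant genes of a list and can hide others that go the other way. Of 10 dendritic cell markers, 10 had a row and their sums spanned 34798 to 44617 with acLDL and 31174 to 35095 without. Of these 10, 5 were listed at 0 in some library. Itgax, the gene of CD11c itself, was listed at 0 in acLDL library 3 and at 10.004 in acLDL library 2. It stood at 189 and 42.7 in acLDL libraries 1 and 4, and at 81.5, 182, 195 and 172 in control libraries 1 to 4. Of 8 macrophage and monocyte markers, 8 had a row and their sums spanned 24673 to 58559 and 41238 to 65846, with 3 listed at 0 in some library. For 7 of 8 granulocyte markers the sums were 473 to 10835 and 5113 to 12741, with 3 listed at 0 in some library. One of 6 erythroid markers had a row, at 54.1 to 189.7 and 164 to 1429. The sums were 29.4 to 76.8 and 16.6 to 31.4 for 2 of 6 lymphocyte markers, and 8.63 to 37.5 and 12.4 to 70.5 for 2 of 4 mast cell and basophil markers. The 18S ribosomal RNA repeat Rn18s-rs5 lay lower in every acLDL library, at 34320 or less, than in any control, at 60775 or more. The part of these cells and of this RNA in the results below was not tested, and in bulk samples fewer cells of a type and less RNA per cell cannot be told apart.

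Of the 8 measured enzymes, 7 were lower with acLDL by mean log2 value, 1, Tm7sf2, was higher, and none passed limma's adjusted threshold of 0.05. Sqle stood lowest against its controls, 3.57-fold lower in mean, followed by Ebp at 2.99-fold and Msmo1 at 2.55-fold. Every value of Sqle, Cyp51 and Sc5d with acLDL lay below every control value. The median log2 fold change of the 8 enzymes, computed on log2(value + 5) as acLDL minus control, was -1.04, against -0.13 over the 10091 tested genes. All 8 had values above the filter minimum of 10 in all 8 libraries, the lowest being 13.9 for Ebp. In acLDL libraries 2 to 4 the values of Sqle, at 15 to 24.3, and of Ebp, at 13.9 to 18.0, were close to that minimum.

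These counts need the background of the whole table. Over all tested genes 0% passed the adjusted threshold, with the smallest adjusted p of limma at 0.298. At an unadjusted p under 0.05, limma gave 1650 genes. Lower genes made up 8.93% of all tested and higher ones 7.42%, and 6 of the 8 enzymes were among the lower ones. Groups without overlap, lower with acLDL, were found for 3 of the 8 enzymes and for 2.2% of all tested genes. None of the 8 was without overlap in the higher direction, against 3.44% of all tested genes. Enzymes at an unadjusted p under 0.05, in either direction, numbered 3 without acLDL library 2 or without control library 4. Of the 10091 genes, 701 and 912 reached this in those fits. The enzymes numbered 4 with a replicate block or with the short-transcript index as a covariate, beside 730 and 505 genes. They also numbered 4 after quantile normalization (1611 genes) or without control library 3 (978), and 3 without acLDL libraries 2 and 3 (305). With a filter of at least 20 in all 8 libraries they were 3 of 5, beside 1062 of 5243 genes. Over the 8 fits that leave out 1 library, the enzymes numbered 3 to 6 and all genes at an unadjusted p under 0.05 numbered 701 to 3992. Without acLDL library 1, 21.7% of all tested genes passed limma's adjusted threshold, and 4 of the 8 enzymes, and each call without that library given below is to be read against this share. In the 7 fits that leave out another library, 0 genes passed, with limma's smallest adjusted p between 0.234 and 0.562 and 701 to 2137 genes at an unadjusted p under 0.05. With limma's array weights 5 of the 8 enzymes and 19.4% of all tested genes passed. A lower mean log2 value was the commoner direction in the table as well, at 55.7%, against 7 of 8 here.

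**Figure D1:**
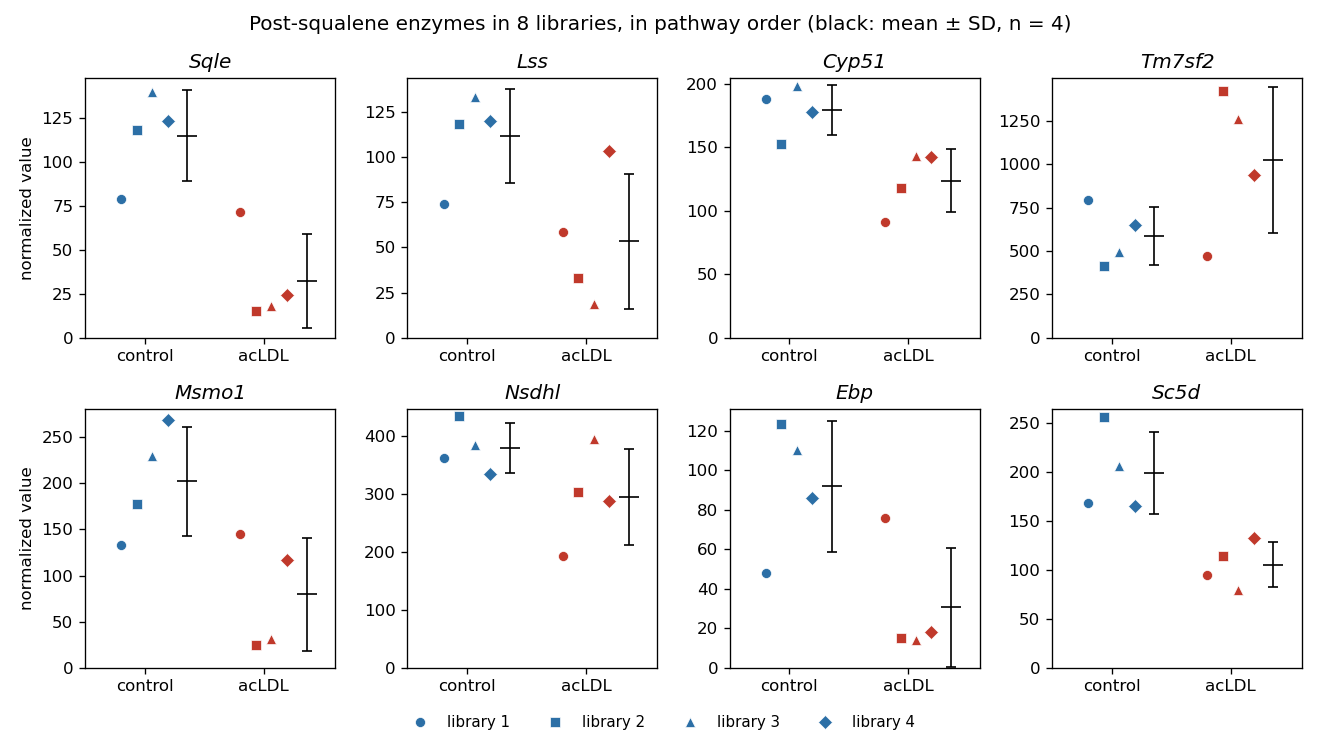
Normalized value (vertical axes from 0, one scale per gene) of the 8 measured enzymes in each control library (blue) and acLDL library (red), with marker shape giving the library number and black bars the mean ± SD of 4 libraries. Sqle, Cyp51 and Sc5d have no overlap between the groups, Tm7sf2 is the 1 gene with a higher mean with acLDL, and acLDL library 1 is the highest of its group for Sqle and Ebp but the lowest for Cyp51 and Nsdhl.

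The promoters of these genes are shown because 7 of the 8 enzymes were lower by mean log2 value, although not in the same acLDL libraries. RefSeq promoter windows (GRCm38.p6) were matched for 7 of the 8 measured enzymes, and the window for Sqle was not analysed here. The 250 bases before the transcription start were searched on both strands for CCAAT, the box bound by NF-Y, and GGGCGG, the box bound by Sp1, since both factors are known partners of the sterol regulatory factors. They were also searched for TCACNCCAC, a general form of the sterol regulatory element, and for TCACNTCAG, after the element described in the human CYP51A1 promoter, chosen after the windows were seen. The search covered overlapping matches, and the motifs do not contain each other. The following 4 windows run 5′ to 3′ on the minus strand of the genome, which is the gene's strand, with every match in capitals. They lie at chr5:4104698-4104947 for Cyp51, chr9:42264301-42264550 for Sc5d, chr8:64733579-64733828 for Msmo1 and chr19:6067851-6068100 for Tm7sf2. The starts are those of RefSeq and can differ from the GENCODE gene ends given below. By GENCODE, the Tm7sf2 window lies wholly within its gene, which extends to 6068373, and the windows of Cyp51 and Msmo1 reach into their genes. Cyp51 and Sc5d had no overlap between the groups, Msmo1 had the lowest value in a single library relative to its controls, and Tm7sf2 was the enzyme with the opposite sign.
Cyp51: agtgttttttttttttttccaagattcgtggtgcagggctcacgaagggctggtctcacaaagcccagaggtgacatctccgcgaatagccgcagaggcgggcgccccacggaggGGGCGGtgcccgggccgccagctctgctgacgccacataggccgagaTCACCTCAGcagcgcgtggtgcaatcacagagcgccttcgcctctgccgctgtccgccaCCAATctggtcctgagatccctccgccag
Sc5d: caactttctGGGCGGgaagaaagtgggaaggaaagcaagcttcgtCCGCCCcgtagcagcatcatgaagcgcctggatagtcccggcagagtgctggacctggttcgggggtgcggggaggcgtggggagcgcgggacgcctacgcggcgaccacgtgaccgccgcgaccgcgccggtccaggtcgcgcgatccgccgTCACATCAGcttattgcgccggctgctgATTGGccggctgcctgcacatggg
Msmo1: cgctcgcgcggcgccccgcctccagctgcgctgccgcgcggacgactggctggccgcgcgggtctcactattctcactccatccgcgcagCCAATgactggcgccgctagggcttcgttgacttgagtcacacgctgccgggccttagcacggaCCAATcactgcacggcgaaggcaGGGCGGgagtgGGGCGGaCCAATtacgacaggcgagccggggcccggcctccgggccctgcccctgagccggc
Tm7sf2: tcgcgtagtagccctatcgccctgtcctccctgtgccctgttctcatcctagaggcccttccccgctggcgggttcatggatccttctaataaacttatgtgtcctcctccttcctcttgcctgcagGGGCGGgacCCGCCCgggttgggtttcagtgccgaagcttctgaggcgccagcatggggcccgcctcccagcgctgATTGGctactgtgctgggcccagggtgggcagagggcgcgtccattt

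All 7 windows held at least 1 CCAAT and at least 1 GGGCGG, Tm7sf2 included. Among 11170 windows of genes in the table, 35.1% held CCAAT, 55.4% held GGGCGG and 19.7% held both. The CCAAT match closest to the start began 29 bases before it in Cyp51, 24 in Sc5d, 55 in Msmo1 and 47 in Tm7sf2, and Msmo1 had 3 such matches. TCACNTCAG was found in Cyp51, 88 bases before the start, and in Sc5d, 52 bases before it, and in 0.707% of the windows of genes in the table. TCACNCCAC was in 0 of the 7 and in 0.886% of those windows. A match describes letters in this window and is no evidence of binding.

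Sqle encodes squalene epoxidase, the oxygen-dependent step that commits squalene to sterols and a known point of control of the pathway. The gene lies on chromosome 15 (59315077 to 59331192, plus strand, GRCm38). Its normalized values were 71.6, 15, 18.2 and 24.3 in acLDL libraries 1 to 4 and 79.0, 118, 140.0 and 123 in control libraries 1 to 4. AcLDL libraries 2 to 4 lay far below all controls, while acLDL library 1 came close to control library 1, the lowest control. The mean was 32.3 ± 26.5 (SD, n = 4) against 115 ± 25.8, and the log2 fold change was -1.88 (SE 0.45, 95% interval -2.90 to -0.87) with limma's adjusted p = 0.298. By p, Sqle ranked 41 of the 10091 tested genes. Its log2 fold change was -1.11 with the short-transcript index as a covariate (limma's adjusted p = 0.844). Without acLDL library 1 it was -2.30, and Sqle then passed limma's threshold with adjusted p = 0.022, as 21.7% of all tested genes did. In the 7 fits without another library limma's adjusted p of Sqle was 0.234 to 0.562.

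Lss encodes lanosterol synthase, which closes the ring system. The gene lies on chromosome 10 (76531588 to 76557138, plus strand) and overlaps an antisense gene of GENCODE, 4930483K19Rik, which has no value here. Its values were 58.6, 32.9, 18.5 and 103 with acLDL and 73.9, 119, 134 and 120.3 in controls. The groups overlapped, since acLDL library 4 lay above control library 1. The log2 fold change was -1.20 (SE 0.47, 95% interval -2.26 to -0.13, limma's adjusted p = 0.298). The value was -0.49 with the covariate and -0.46 without acLDL libraries 2 and 3.

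Cyp51, the cytochrome P450 that removes a methyl group from lanosterol, differed less but more evenly. It lies on chromosome 5 (4081145 to 4104746, minus strand). Its values were 91.3, 118, 143 and 143 with acLDL and 188, 152, 198 and 178 in controls. The groups did not overlap, and the lowest value of all belonged to acLDL library 1, the library that lay with the controls by its index. The mean was 124 ± 24.6 (SD, n = 4) against 179 ± 19.7, and the log2 fold change was -0.53 (SE 0.23, 95% interval -1.05 to -0.02, limma's adjusted p = 0.298). With the covariate it was -0.73. Akap9, which overlaps Cyp51 on the opposite strand, spanned 10.2 to 19.97 with acLDL and 12.6 to 19.9 without, so its values overlapped between the groups where those of Cyp51 did not.

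Tm7sf2 encodes a reductase of the sterol ring that acts on the product of Cyp51, a reaction that the lamin B receptor, encoded by Lbr, also carries out. It lies on chromosome 19 (6062821 to 6068373, minus strand) and overlaps Vps51 on the same strand, so reads of the 2 genes may be shared. Its values were 472, 1423, 1264 and 939 with acLDL and 793, 415, 494 and 651 in controls. AcLDL libraries 2 to 4 lay above every control, and acLDL library 1 lay among the lower controls. The mean was 1024 ± 420 (SD, n = 4) against 588 ± 168, with a log2 fold change of 0.72 (SE 0.37, 95% interval -0.11 to 1.55, limma's adjusted p = 0.305). It was 0.05 with the short-transcript covariate and 0.22 without acLDL libraries 2 and 3. Without acLDL library 1 it was 1.05, and the gene then passed limma's threshold with adjusted p = 0.032. Vps51 had values of 67.0, 18.6, 0 and 20.03 with acLDL and 8.79, 52.0, 63.3 and 45.8 in controls, and was highest in acLDL library 1, where Tm7sf2 was lowest of its group.

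Msmo1 encodes the oxidase that starts the removal of a further pair of methyl groups. It lies on chromosome 8 (64718139 to 64733792, minus strand). Its values were 146, 24.4, 31.3 and 116 with acLDL and 134, 178, 230 and 268 in controls. AcLDL libraries 2 and 3 stood apart from all others, and acLDL library 1 lay above control library 1. The log2 fold change was -1.60 (SE 0.56, 95% interval -2.85 to -0.34, limma's adjusted p = 0.298). It was -0.58 with the covariate and -0.57 without acLDL libraries 2 and 3. Without acLDL library 1 it was -1.99 with limma's adjusted p = 0.033.

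Nsdhl, a dehydrogenase that works on the product of Msmo1, differed least. It lies on chromosome X (72918557 to 72958514, plus strand). Its values were 192, 303, 394 and 287 with acLDL and 362, 435, 385 and 335 in controls. The value in acLDL library 3 fell among those of the controls, and acLDL library 1 was the lowest of all 8. The log2 fold change was -0.40 (SE 0.24, 95% interval -0.95 to 0.15, limma's adjusted p = 0.347). It was -0.74 with the covariate and -0.67 without acLDL libraries 2 and 3, but -0.21 without acLDL library 1. Among the acLDL libraries, library 1 was the highest for Msmo1 and the lowest for Nsdhl.

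Ebp encodes the isomerase that moves a double bond within the ring and is known as the emopamil binding protein. It lies on chromosome X (8185329 to 8193512, minus strand). Its values were 75.9, 15, 13.9 and 18.0 with acLDL and 47.9, 123, 110.4 and 86.1 in controls. AcLDL libraries 2 to 4 lay below every control, and acLDL library 1 lay between control libraries 1 and 4. The mean was 30.7 ± 30.2 (SD, n = 4) against 91.9 ± 33.1, with a log2 fold change of -1.67 (SE 0.53, 95% interval -2.87 to -0.46, limma's adjusted p = 0.298). It was -0.73 with the covariate and -1.09 without acLDL libraries 2 and 3. Without acLDL library 1 it was -2.16 with limma's adjusted p = 0.024.

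Sc5d encodes the desaturase that forms the sterol that Dhcr7 then reduces. It lies on chromosome 9 (42251595 to 42264256, minus strand). Its values were 94.8, 115, 79.3 and 132 with acLDL and 169, 256, 206 and 166 in controls. All 4 acLDL libraries lay below all 4 controls, acLDL library 1 as clearly as the others. The mean was 105 ± 23.1 (SD, n = 4) against 199 ± 42.2, a 1.89-fold difference. The log2 fold change was -0.89 (SE 0.25, 95% interval -1.46 to -0.32) with limma's adjusted p = 0.298, and Sc5d ranked 148 of 10091 by p. It was -0.76 with the covariate, and -1.0 to -0.77 over the fits that leave out 1 library.

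**Figure D2:**
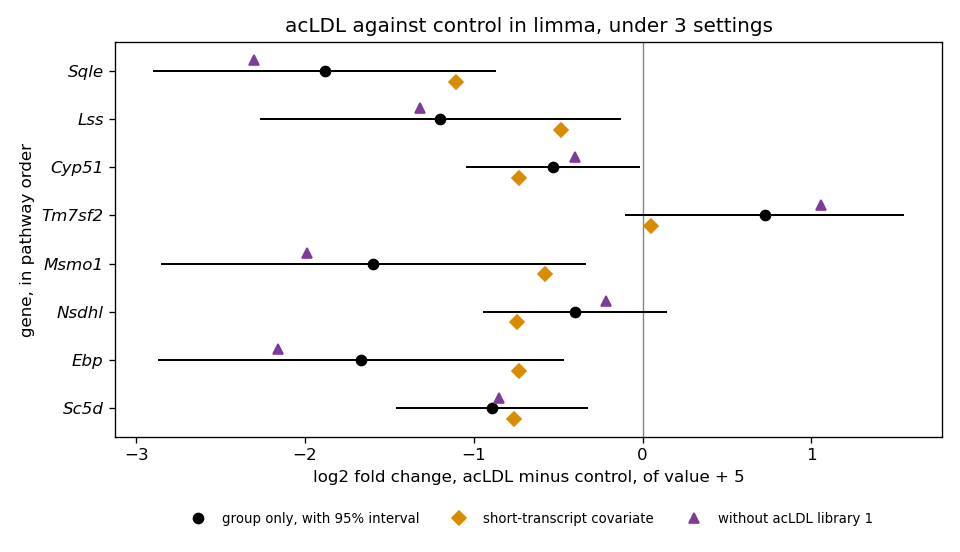
Log2 fold change (acLDL minus control, horizontal axis, on value + 5) of each enzyme in limma with the group as the only term (black, with its 95% interval), with the short-transcript index as a covariate (orange diamonds) and without acLDL library 1 (purple triangles). Sqle moves from -1.88 to -1.11 and Tm7sf2 from 0.72 to 0.05 with the covariate, while Cyp51 and Nsdhl move away from 0, to -0.73 and -0.74.

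The enzymes did not share a single pattern over the acLDL libraries. Sqle and Ebp were low in acLDL libraries 2 to 4, at -2.56 to -2.0 as log2 deviation from the control mean, and least so in acLDL library 1, at -0.62 and -0.18. Msmo1 and Lss were lowest in acLDL libraries 2 and 3, at -2.77 to -1.59. Cyp51 and Nsdhl were instead lowest in acLDL library 1, at -0.93 and -0.96 and between -0.58 and 0.06 in the others. Sc5d lay between -1.25 and -0.55 in all 4. The longest coding transcript is 2758 nt for Sqle, 4667 for Lss, 2044 for Msmo1 and 1743 for Ebp, which all lay between -2.77 and -1.59 in acLDL libraries 2 and 3. It is 3931 nt for Cyp51, 2168 for Nsdhl, 4787 for Sc5d and 1498 for Tm7sf2. Sc5d was also lowest in acLDL library 3, at -1.25. Tm7sf2, the shortest of the 8, had the opposite sign, and a link between these differences and transcript length was not tested. With the index as a covariate, the log2 fold changes of the 8 enzymes ran from -1.11 for Sqle to 0.05 for Tm7sf2. Msmo1 was at -0.58 and Lss at -0.49. Cyp51, Nsdhl, Ebp and Sc5d lay from -0.76 to -0.73, and from -1.67 to -0.40 without the covariate. All 7 were still lower with that covariate and none passed limma's threshold, the smallest adjusted p over all genes being 0.844. The index is itself lower in 3 of the 4 acLDL libraries, so an effect of acLDL and the index cannot be told apart in this fit.

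**Figure D3:**
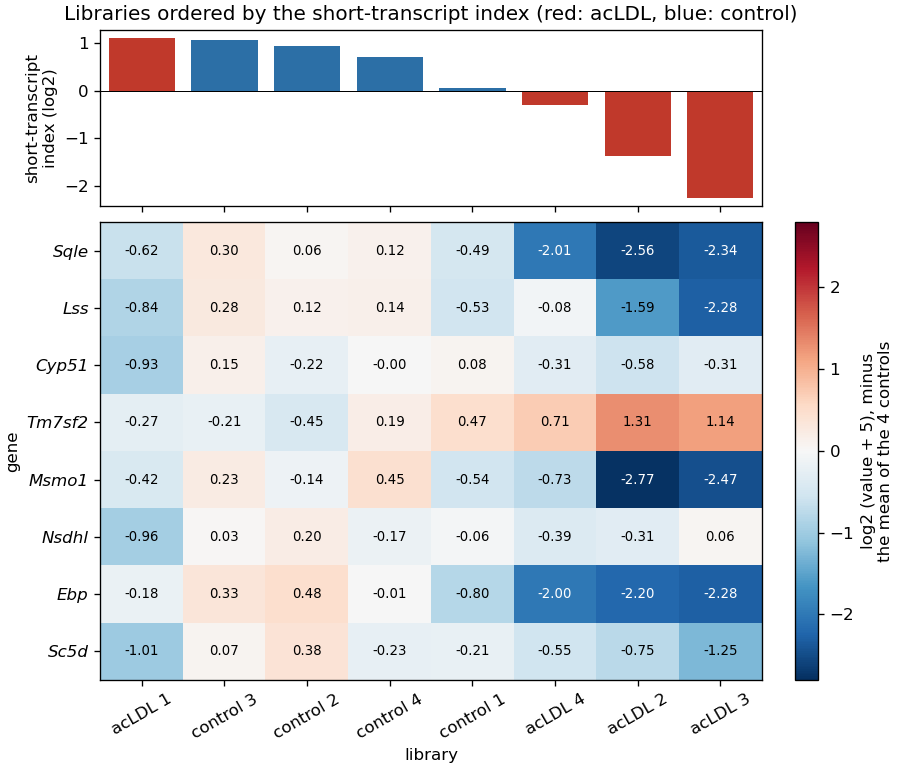
Libraries from left to right by falling short-transcript index (bars above, log2; red acLDL, blue control), and below them the log2 value of each enzyme minus its mean over the 4 controls (blue lower, red higher). AcLDL library 1 has the highest index, 1.11, and is below 0 for all 8 enzymes, most for Sc5d at -1.01, while Sqle, Msmo1 and Ebp reach -2.56, -2.77 and -2.28 in acLDL libraries with a low index.

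Libraries with a similar index could be set side by side without a model. AcLDL library 1 (1.11) was compared with control libraries 2 to 4 (0.72 to 1.08), and acLDL library 4 (-0.30) with control library 1 (0.06). This comparison was chosen after seeing the data and is a description with no test. In acLDL library 1, 7 of the 8 enzymes lay below all 3 of those controls, against 19.6% of all tested genes. The exception was Tm7sf2, at 472 within the controls' 415 to 651. This count leaves out control library 1, which lay below acLDL library 1 for Msmo1, at 134 against 146, and for Ebp, at 47.9 against 75.9. In acLDL library 1, 5 of the 8 enzymes lay below all 4 controls, and the share of all tested genes that did so was not computed. The differences on the log2 scale were -1.08 for Sc5d, -1.02 for Lss, -0.98 for Nsdhl, -0.90 for Cyp51, -0.78 for Sqle, -0.59 for Msmo1 and -0.45 for Ebp. The median over the 8 enzymes was -0.84, against 0.07 over all tested genes.

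In acLDL library 4, 6 of the 8 enzymes lay below control library 1, against 52.8% of all tested genes, so this count is closer to its background. Sqle, at 24.3 against 79.0, and Ebp, at 18.0 against 47.9, stood furthest apart, by -1.52 and -1.20 on the log2 scale. Cyp51, Sc5d, Nsdhl and Msmo1 differed by -0.39 to -0.19. Lss at 103 against 73.9 and Tm7sf2 at 939 against 793 were higher. Sqle, Cyp51, Msmo1, Nsdhl, Ebp and Sc5d were lower in both comparisons, 6 of 8 enzymes, as were 10.6% of all tested genes.

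**Figure D4:**
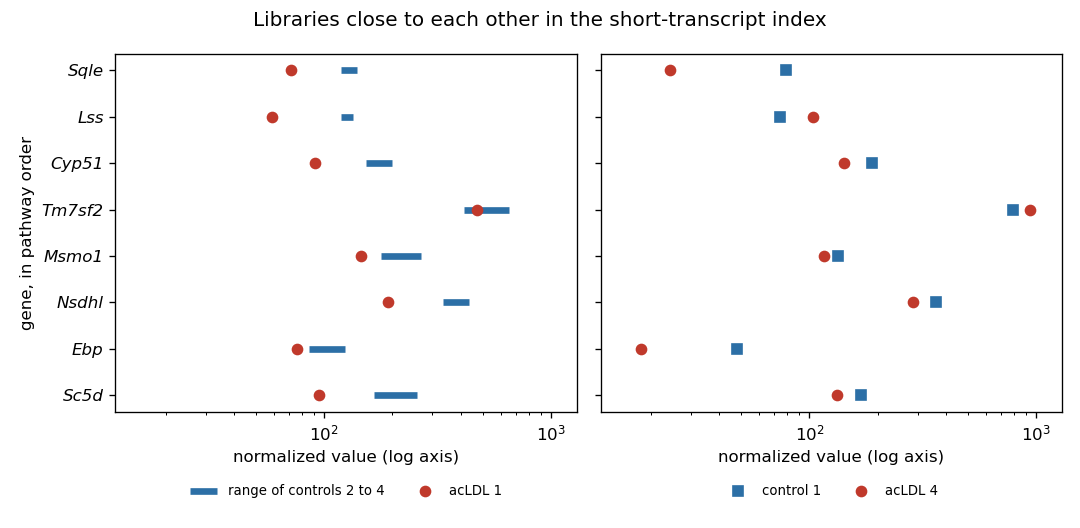
Normalized value (log axis) of each enzyme in libraries with a similar short-transcript index, with acLDL library 1 (red) against the range of control libraries 2 to 4 (blue bars) on the left, and acLDL library 4 (red) against control library 1 (blue squares) on the right. On the left 7 of 8 red points lie below the blue range, and on the right 6 of 8 lie below the blue squares, with Sqle and Ebp furthest. The blue range leaves out control library 1, and 5 of 8 values of acLDL library 1 lie below the lowest of all 4 controls.

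Other genes of the same stretch of the pathway were measured at low values. Erg28, a scaffold of the enzymes that remove methyl groups, was listed at 0 in acLDL libraries 2 and 4 and stood at 40.1 and 6.86 in acLDL libraries 1 and 3. Its controls were 8.83, 34.2, 49.1 and 21.5, and its log2 fold change of -1.47 was -0.47 with the covariate. Erg28 reached the filter minimum of 10 only in acLDL library 1 and control libraries 2 to 4. It therefore entered the fit without acLDL library 1 through that library and the controls. Its adjusted p of limma there, 0.042, is given without a conclusion. Hsd17b7, which finishes the removal of those methyl groups, did not pass the filter, with 9.55 in acLDL library 1, a listed 0 in the other three, and 5.61, 18.9, 21.0 and 19.3 in controls. Lbr and Faxdc2 were not analysed here.

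The enzymes that lead from acetyl-CoA to squalene were lower in 9 of 10 genes by mean log2 value, against 55.7% of all tested genes. Their median was -0.73, and 0 of 10 passed limma's threshold in either direction. Groups without overlap, lower with acLDL, were found for 3 of these 10, against 2.2% of all tested genes. Hmgcs1, an early enzyme of the mevalonate branch, had the smallest p and spanned 558 to 741 with acLDL and 1062 to 1442 in the control libraries. Its log2 fold change of -0.86 was -0.94 with the covariate. Fdps, which makes farnesyl diphosphate, was listed at 0 in acLDL libraries 2 and 3 and stood at 51.1 and 6.94 in acLDL libraries 1 and 4, with controls from 52.3 to 86.7. Mvd, a decarboxylase, had values of 69.4, 33.6, 0 and 27.2 with acLDL and 88.8, 105, 90.9 and 115 in controls. Its log2 fold change of -2.0 was -0.73 with the covariate, as that of Fdps went from -2.59 to -1.17. Fdps and Mvd were thus, like Sqle and Ebp, high in acLDL library 1 within their group, and without that library, where 21.7% of all tested genes passed, Hmgcs1, Fdps and Mvd had limma's adjusted p = 0.026, 0.022 and 0.037. Outside acLDL library 1, Fdps reached the filter minimum of 10 only in controls, so no conclusion is drawn from its call without that library. Without acLDL library 3 the log2 fold change of Mvd was -1.21.

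Of 9 measured genes of pathway control and cholesterol uptake, 7 were lower and 2 higher by mean log2 value, against 55.7% lower over all tested genes. None of the 9 passed limma's threshold. Srebf2, the factor that drives the pathway, had values of 192, 97.7, 46.9 and 78.4 with acLDL and 193, 197, 256 and 205 in controls. AcLDL library 1 was close to the lowest control, and the log2 fold change of -1.16 was -0.50 with the covariate. Without that library Srebf2 passed limma's threshold with adjusted p = 0.024. Insig1, which retains the sterol sensor in the endoplasmic reticulum and is itself a target of the pathway's factor, stood at 26.3, 37.2, 22 and 39.4 with acLDL and at 52.3, 103, 93.1 and 37.7 without it. The gene's log2 fold change was -1.01, and -0.86 with the covariate.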

How the data were processed

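Poly(A) RNA of 8 libraries was prepared with the QuantSeq V2 kit of Lexogen, which reads the 3' end of messages, per the labels' protocols, although the design text of the series speaks of 5' ends. The tools were bcl2fastq 2.20 and kallisto, on mm10, per the submitters' processing notes. The deposited values are a normalized signal in the authors' own scale, although the table is named as raw counts, with annotation and scaling not given in the sources used here. No counting interval was computed, since the values are not counts. The 10091 genes that reached 10 in 4 or more libraries entered limma 3.58.1 in R 4.3.3 on log2(value + 5), with a variance trend, robust moderation and the group as the only term. Benjamini-Hochberg adjustment ran over all tested genes, with a threshold of 0.05. Log2 fold changes on this scale understate changes of low genes. Named genes were the measured members, the other enzymes of the same steps, the 3 genes of the mevalonate list with the smallest p, Srebf2, Insig1 and Itgax, with certain others of the rule not reported here. Members and lists were chosen with earlier results of these data known. Coordinates and lengths came from GENCODE release M21 (GRCm38), with a coding length for 89.1% of tested genes, and promoters from RefSeq. Kallisto shares reads between similar or overlapping transcripts, and whether strand was used is not given. Alternatives were other pseudocounts, filters and scalings, a replicate block, the short-transcript covariate, array weights and libraries left out. Figures were drawn with Python 3.11.15.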

Additional observations from a re-analysis of the deposited data

Results flagged for a closer look

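Among 34 groups of 4 libraries screened, a pair for each named gene of the pathway, 6 had a library far from the others by Dixon's criterion. That criterion flags about 1 in 20 groups of normally spread values by chance. The rate does not hold for groups with values listed at 0, such as the acLDL groups of Fdps and Hsd17b7. AcLDL library 1 was the high library in 4 of them: Sqle at 71.6 (the others 15 to 24.3), Ebp at 75.9 (13.9 to 18.0), Fdps at 51.1 (0 to 6.94) and Hsd17b7 at 9.55 (listed at 0 in the others). Control library 1 was apart in the remaining groups, high for Hmgcs1 at 1442 (the others 1062 to 1097) and low for Hsd17b7 at 5.61 (18.9 to 21.0).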

How the results depend on the processing

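The log2 fold changes of the 8 enzymes and of Erg28, Srebf2, Insig1, Hmgcs1, Fdps and Mvd kept their sign in every alternative limma fit run that tested the gene. The same count of 7 lower enzymes was found in each of these fits except one. With a filter of at least 20 in all 8 libraries 5 enzymes were tested, 4 of them lower, and the median was -0.53. Sqle, Lss and Ebp dropped out there, each through low values in acLDL libraries. Of the comparisons added after seeing the data, acLDL library 1 against control libraries 2 to 4 gave 8 lower, and acLDL library 4 against control library 1 gave 6 lower with a median of -0.34. The median lay between -1.28 and -0.80 when each library was left out, and at -0.65 without acLDL libraries 2 and 3. The count of genes past limma's threshold was 0 as reported, 1 after quantile normalization (Rn18s-rs5, named after its values were seen) and 1957 with array weights, which called Sqle, Tm7sf2, Msmo1, Ebp and Sc5d. With each library left out it ran from 0 to 2190, the highest without acLDL library 1, where Sqle, Tm7sf2, Msmo1 and Ebp passed. The median over all tested genes was -0.13 as deposited and 0.13 after quantile normalization, a shift that leaves the enzymes' median at -0.79. Pseudocounts of 1 and 20 gave -2.56 and -0.70 for Erg28, and 20 gave -1.5 for Fdps. The replicate block gave 0 genes past the threshold. In this balanced design it cannot change a log2 fold change, so its median of -1.04 was fixed in advance. A change of filter also leaves the log2 fold change of each tested gene as it was. The signs kept under the block and the filters therefore add nothing. Same-numbered libraries did not deviate together (correlations -0.55, -0.21, -0.28 and 0.03), and 0 of 4 numbers correlated best with their own.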
